A study of Homo sapiens with 9 samples.

Results

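The transcripts described here are those of the NF-kB transcription factors, their inhibitors, and the cytokines, chemokines and survival genes known as NF-kB targets. Members were chosen by gene name from a list of 32 genes, and 31 of them were measured among the 32997 genes of the table. CCL2 was not analysed here. RNA of ES-2 cells, an established line from a human ovarian cancer, was sequenced in 9 bulk libraries, in 3 groups of 3: cells that overexpress OTUB2, cells that overexpress SNX29P2, and cells that carry an empty vector. OTUB2 encodes a deubiquitinating enzyme of the OTU family, and SNX29P2 is a pseudogene of the sorting nexin gene SNX29. All 3 groups were ES-2 cells grown in RPMI-1640 with 10% fetal bovine serum and received no treatment, so no cytokine or other NF-kB stimulus was added in any group. RNA was extracted with TRIzol. The labels name neither the vector type nor whether each group was a clone or a pool of cells, and whether each library had a culture of its own is not stated. All p-values therefore rest on the spread among these libraries alone, and that spread may be technical.

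As background, NF-kB factors are dimers of the subunits encoded by RELA, RELB, REL, NFKB1 and NFKB2. Inhibitor proteins such as that encoded by NFKBIA hold the dimers in the cytoplasm until a kinase complex marks the inhibitor with phosphate and it is ubiquitinated and destroyed. The released dimers bind kappa-B sites in promoters and enhancers of inflammatory genes, and several of these genes, NFKBIA and TNFAIP3 among them, encode proteins that shut the signal off again. Ubiquitin chains also carry the signal between receptor and kinase. In ovarian cancer cells the pathway is known for driving secretion of chemokines and interleukins.

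Sequencing depth was 38504854 to 48551215 reads in genes per library. The introduced genes followed the labels: OTUB2 had 37.6, 42.6 and 38.4 RPKM (reads per kilobase of gene and per 1000000 reads in genes) in OTUB2 cells, against 1.31, 1.16 and 1.04 RPKM in vector cells. SNX29P2 had 41.0, 55.1 and 47.6 RPKM in SNX29P2 cells, against 0.0665, 0.0246 and 0 RPKM in vector cells. The deposited values cannot tell transcripts of an introduced copy from those of the cell's own gene. Of the epithelial markers, KRT7, KRT8 and KRT18 lay between 25.7 and 147 RPKM in all libraries, whereas EPCAM and KRT19 stayed at or below 0.0560 RPKM. Of the ovarian lineage markers, PAX8 lay between 0.149 and 0.421 RPKM and NAPSA at or below 0.0270 RPKM. OTUB2 replicate 1 stood apart: the summed level of 7 leukocyte markers (PTPRC, CD3E, CD4, CD14, LYZ, CD79A and ITGAM) was 5.92 RPKM in it and 0.108 to 0.269 RPKM in the other 8 libraries. CD68, the last of the 8 listed leukocyte markers, lay between 28.6 and 35.3 RPKM in all 9 libraries. Fold changes for OTUB2 against vector cells are therefore also given without that library for the genes described most closely. The part of these leukocyte transcripts in any result was not tested.

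Kappa-B sites are the best known sequence feature of this pathway, so the windows below show the sites of members whose levels are described later. Each window is 30 bases of a promoter from RefSeq (GRCh38.p14), read 5′ to 3′ on the strand of the gene, with the match to the kappa-B consensus in capitals.
CXCL1 (chr4:73869305-73869334, plus strand): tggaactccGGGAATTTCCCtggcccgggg
CXCL2 (chr4:74099253-74099282, minus strand): tggagctccGGGAATTTCCCtggcccggga
CXCL3 (chr4:74038748-74038777, minus strand): tggagctccGGGAATTTCCCtggcccggcc
NFKB2 (chr10:102394462-102394491, plus strand): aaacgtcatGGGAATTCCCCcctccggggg
NFKBIA (chr14:35404811-35404840, minus strand): tgactggcttGGAAATTCCCcgagcctgac
IL6 (chr7:22727117-22727146, plus strand): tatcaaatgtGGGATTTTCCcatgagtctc
The chemokine genes CXCL1, CXCL2 and CXCL3 lie in 1 cluster on chromosome 4 and carry the same site with nearly the same bases around it: 28 of 30 bases were identical between CXCL1 and CXCL2, 27 between CXCL1 and CXCL3, and 28 between CXCL2 and CXCL3. Over 250 bases aligned on this site, a stretch that ran past the start, identity without gaps was 48.8% for CXCL1 and CXCL2. It was 69.2% for CXCL1 and CXCL3. Their RPKM levels differed, as given with the chemokines.

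RefSeq windows of 300 bases (250 before and 50 after a start) were matched for 26 of the 31 members by symbol. IER3, RELB, CSF1, LIF and NFKBIE had no entry. Searched on both strands, the kappa-B consensus was found in 15 of 40 member windows (37.5%), against 5.91% of all 35116 windows, and in 14 of the 26 member genes. The shorter pattern GGGNNNNNCC, which overlaps the consensus, was found in 90.0% of the member windows and in 58.7% of all windows. Kappa-B sites are a reason why these genes are known as targets, so a surplus over all promoters describes the list and is no result of the experiment. PTGS2, whose level differed most between the groups, had no consensus match in its window, which says only that these letters are not in it. Its promoter is given with the matches to GGGNNNNNCC in capitals, 225 to 214 bases before the start (GRCh38.p14, minus strand).
PTGS2 (chr1:186680374-186680673): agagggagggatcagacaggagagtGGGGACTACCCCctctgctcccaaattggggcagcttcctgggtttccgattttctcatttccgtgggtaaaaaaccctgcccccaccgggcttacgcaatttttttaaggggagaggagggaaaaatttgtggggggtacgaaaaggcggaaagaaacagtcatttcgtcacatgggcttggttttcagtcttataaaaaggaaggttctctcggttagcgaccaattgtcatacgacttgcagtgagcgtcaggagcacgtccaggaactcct
The same window holds a TATAAA box 32 to 27 bases before the start. A motif match is a description of the sequence and not evidence that a factor was bound in these cells.

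The members differed widely in level. The 6 highest by mean over the 9 libraries were CXCL8, with a range of 52.3 to 90.9 RPKM, BIRC2 with 46.9 to 69.4 RPKM, IER3 with 48.6 to 72.6 RPKM, CXCL1 with 21.9 to 44.6 RPKM, RELA with 31 to 33.6 RPKM and LIF with 19.9 to 31.4 RPKM. CXCL8 encodes the neutrophil attractant interleukin-8, and IER3 is a stress-induced survival gene. These ranges overlap between CXCL8, BIRC2 and IER3, so their order is not settled by 9 libraries. In the middle, from TNFAIP2 down to PTGS2 and CCL20, means lay between 13.9 and 1.22 RPKM. BCL3, TNFAIP8, REL, IL6, BIRC3 and CSF1 lay between 0.289 and 1.40 RPKM in every library.

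**Figure D1:**
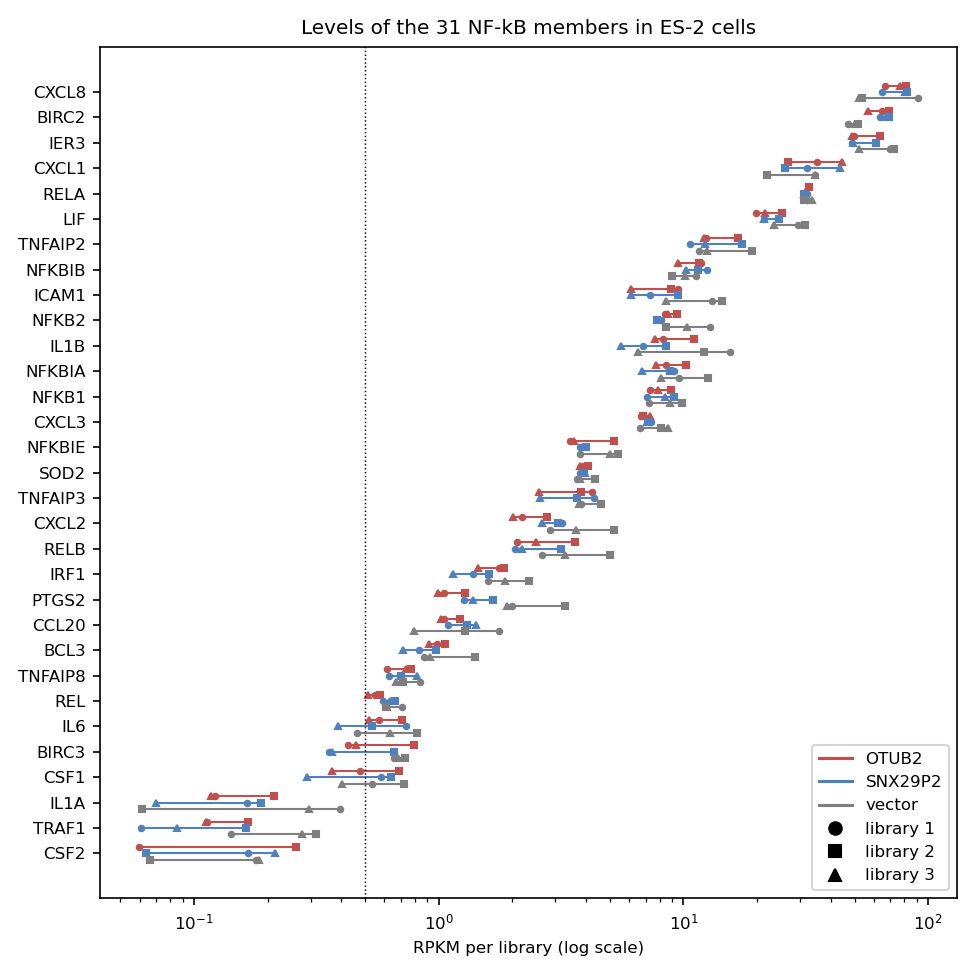
Level of each of the 31 members in each library, in RPKM on a log axis, ordered by the mean over 9 libraries; lines span the 3 libraries of OTUB2 cells (red), SNX29P2 cells (blue) and vector cells (grey), and marker shapes give the library number. Members run from CXCL8, at 52.3 to 90.9 RPKM, down to CSF2, whose value of 0 in OTUB2 replicate 3 cannot be drawn on a log axis; the dotted line marks the 0.5 RPKM minimum of the test.

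The plot of levels shows that differences between members were far larger than differences between groups. 28 members passed the minimum of 0.5 RPKM in at least 3 libraries and were tested; TRAF1, IL1A and CSF2 did not. TRAF1, a signalling adaptor, had 0.113, 0.166 and 0.113 RPKM in OTUB2 cells, 0.0609, 0.163 and 0.0854 RPKM in SNX29P2 cells, and 0.142, 0.314 and 0.278 RPKM in vector cells. These came from 18 to 78 reads per library. IL1A, which encodes interleukin-1 alpha, had 7 to 22 reads in the OTUB2 and SNX29P2 libraries and 36, 5 and 26 reads in the vector libraries, so vector replicate 2 lay below all others. CSF2, a myeloid growth factor, had 0 to 10 reads in OTUB2 cells, 2 to 8 reads in SNX29P2 cells and 2 to 6 reads in vector cells; 0 reads in OTUB2 replicate 3 allows up to 0.0954 RPKM (3 reads, counting error only). None of these 3 members is compared further.

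No member passed the test in any of the 3 comparisons. With limma and Benjamini-Hochberg adjustment over 16533 genes, 0 of 28 tested members had an adjusted p under 0.05 for OTUB2 against vector cells, where 0.0181% of all genes tested did. The count was also 0 of 28 for SNX29P2 against vector cells, against 0.0363% of all genes, and 0 of 28 for OTUB2 against SNX29P2 cells, against 0.0242% of all genes. At an unadjusted p under 0.05 the test gave 5 members for OTUB2 against vector cells (BIRC2, ICAM1, CXCL2, LIF and PTGS2), or 17.9% of those tested beside 6.73% of all genes. It gave 6 for SNX29P2 against vector cells (NFKB2, BIRC2, ICAM1, LIF, PTGS2 and IRF1), or 21.4% beside 8.21% of all genes, and 0 for OTUB2 against SNX29P2 cells beside 2.43% of all genes. The counts moved in both directions with single libraries. For OTUB2 against vector cells 3 members (10.7%) were left without OTUB2 replicate 3, beside 4.82% of all genes in that fit, and 4 (14.3%) without OTUB2 replicate 1, beside 4.85%. There were 6 (21.4%) without OTUB2 replicate 2, beside 5.96%, and 7 (25%) without vector replicate 3, beside 11.1%. For SNX29P2 against vector cells the count was 3 (10.7%) without SNX29P2 replicate 1, beside 9.93% of all genes, 3 without SNX29P2 replicate 3, beside 5.04%, and 3 without vector replicate 2, beside 7.20%. It was 8 (28.6%) without vector replicate 3, beside 10.6% of all genes, 9 (32.1%) without vector replicate 1, beside 9.79%, and 10 (35.7%) without SNX29P2 replicate 2, beside 5.64%. Fold changes were taken on log2(RPKM + 0.1), which shrinks differences of low genes.

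The differences from vector cells were small and mostly negative. Of the 28 tested members, 23 had a log2 fold change below 0 for OTUB2 against vector cells, beside 7936 of all 16533 genes, and 23 for SNX29P2 against vector cells, beside 7668 of all genes. Both comparisons use the same 3 vector libraries, so their counts are not independent. The median log2 fold change of the tested members was -0.17 for OTUB2 against vector cells and -0.20 for SNX29P2 against vector cells, beside 0.01 over all genes in each comparison. These medians moved with vector replicate 2: without it they were -0.09 for OTUB2 against vector cells and -0.09 for SNX29P2 against vector cells, with 18 and 20 members below 0. The medians over all genes in that fit were 0.01 and 0.02. The median for OTUB2 against vector cells was -0.13 without OTUB2 replicate 1 and -0.09 without OTUB2 replicate 3. That for SNX29P2 against vector cells was -0.12 without SNX29P2 replicate 3. In bulk RNA, fewer cells expressing a gene and less RNA per cell cannot be told apart.

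**Figure D2:**
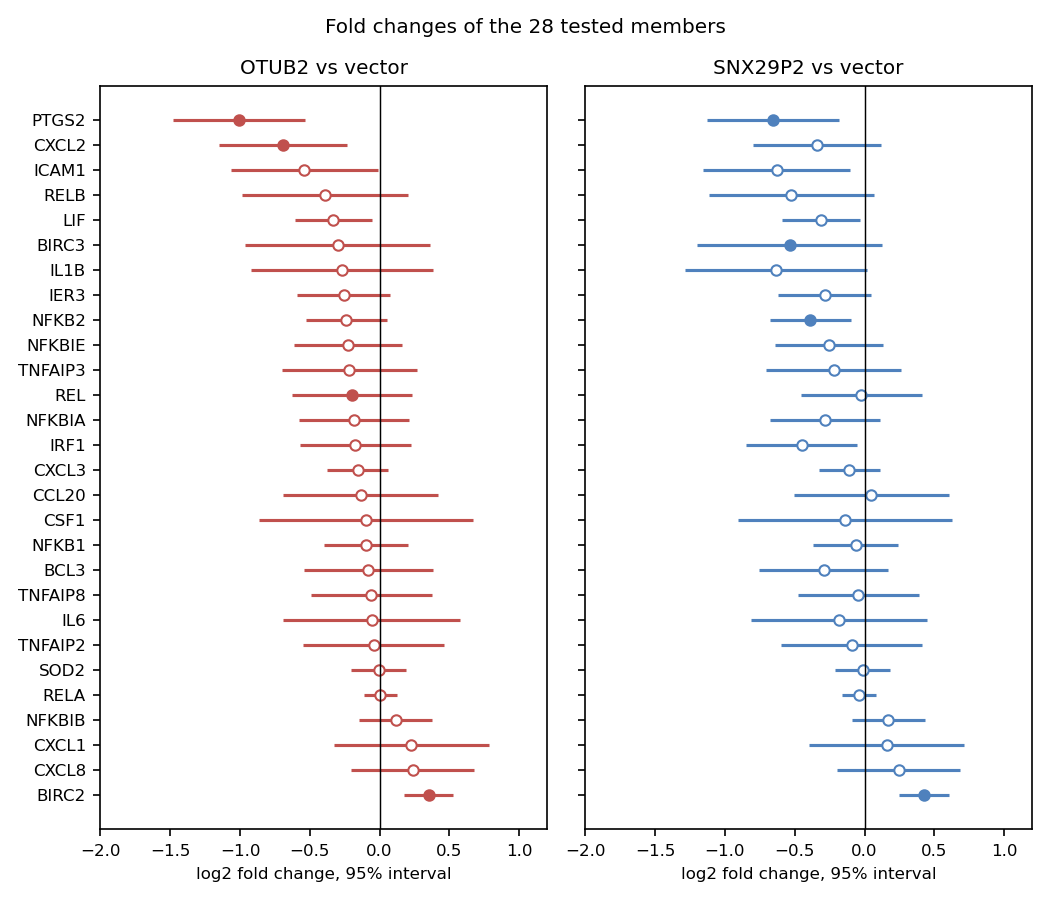
Log2 fold change of the 28 tested members with its 95% interval, for OTUB2 against vector cells (left) and SNX29P2 against vector cells (right), ordered by the left values; filled points mark members whose libraries did not overlap between the groups. Values run from -1.01 for PTGS2 to 0.35 for BIRC2 on the left, and no member passed the adjusted threshold on either side; both panels share the vector libraries.

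A separate description counts members whose 3 libraries in one group all lay on the same side of the 3 in the other. For OTUB2 against vector cells, 1 member lay above (BIRC2), beside 5.9% of all genes, and 3 lay below (REL, CXCL2 and PTGS2), beside 4.91% of all genes. For SNX29P2 against vector cells, 1 lay above (BIRC2), beside 6.13% of all genes, and 3 lay below (NFKB2, BIRC3 and PTGS2), beside 5.53% of all genes. BIRC3 passed the minimum level only through its vector libraries, so its place in this count supports no difference. For OTUB2 against SNX29P2 cells, 2 lay above (NFKB2 and RELA), beside 4.3% of all genes, and 1 lay below (REL), beside 4.05% of all genes. As shares of the 28 tested members, 1 is 3.57%, 2 is 7.14% and 3 is 10.7%. With 1 library fewer, separation needs fewer libraries, and the counts in both directions together then ran from 4 to 10 for OTUB2 against vector cells, from 4 to 11 for SNX29P2 against vector cells and from 3 to 7 for OTUB2 against SNX29P2 cells. For OTUB2 against vector cells the highest count, 10 or 35.7%, came without OTUB2 replicate 2, where 20.3% of all genes separated, and without vector replicate 3, where 26.4% did. For SNX29P2 against vector cells the highest, 11 or 39.3%, came without vector replicate 1, beside 23.8% of all genes, and 10 came without SNX29P2 replicate 2, beside 18.7%. For OTUB2 against SNX29P2 cells the highest, 7 or 25%, came without OTUB2 replicate 2, beside 19.7% of all genes, and without SNX29P2 replicate 2, beside 16.1%. In other fits the members separated less often than all genes. For OTUB2 against vector cells it was 14.3% beside 19.4% without OTUB2 replicate 1. For SNX29P2 against vector cells it was 14.3% beside 21.3% without vector replicate 2. For OTUB2 against SNX29P2 cells it was 17.9% beside 27.5% without SNX29P2 replicate 1.

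Among the subunits, RELA, the main activating subunit, was the most even member of all. It had 32.6, 32.4 and 32.2 RPKM in OTUB2 cells, 32.1, 31.1 and 31 RPKM in SNX29P2 cells, and 32.1, 31.2 and 33.6 RPKM in vector cells. The log2 fold change was 0.01 (SE 0.05; 95% interval -0.12 to 0.13) for OTUB2 against vector cells and -0.04 (SE 0.05; 95% interval -0.16 to 0.08) for SNX29P2 against vector cells. The RELA value for OTUB2 against vector cells was 0.00 without OTUB2 replicate 1. RELA libraries of either overexpression group overlapped with those of vector cells. NFKB2 (chromosome 10, 102394110 to 102402529), which encodes the p100 precursor of the non-canonical pathway, had 8.42, 9.41 and 8.67 RPKM in OTUB2 cells, 8.07, 7.83 and 7.92 RPKM in SNX29P2 cells, and 12.9, 8.49 and 10.4 RPKM in vector cells. All SNX29P2 libraries lay below all vector libraries, by a log2 fold change of -0.39 (SE 0.13, Benjamini-Hochberg adjusted p = 0.533 from limma), while OTUB2 and vector libraries overlapped at -0.24 (SE 0.13, Benjamini-Hochberg adjusted p = 0.788 from limma). The vector libraries ranged most, and without vector replicate 1 these values were -0.09 for OTUB2 against vector cells and -0.24 for SNX29P2 against vector cells. Without OTUB2 replicate 1 the NFKB2 value for OTUB2 against vector cells was -0.20.

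RELB, the partner of the processed NFKB2 product, had 2.10, 3.60 and 2.51 RPKM in OTUB2 cells, 2.05, 3.15 and 2.19 RPKM in SNX29P2 cells, and 2.66, 5.01 and 3.28 RPKM in vector cells. In each group the library numbered 2 was the highest, and the groups overlapped. The log2 fold change was -0.39 (SE 0.26) for OTUB2 against vector cells and -0.52 (SE 0.26) for SNX29P2 against vector cells, and -0.14 and -0.28 without vector replicate 2. Without OTUB2 replicate 1 the value for OTUB2 against vector cells was -0.22, and without OTUB2 replicate 2 it was -0.60. NFKB1, the source of the p50 subunit, had 7.31, 8.93 and 7.85 RPKM in OTUB2 cells, 7.09, 9.19 and 8.43 RPKM in SNX29P2 cells, and 7.24, 9.85 and 8.83 RPKM in vector cells, and again library 2 was the highest in each group. REL, which encodes c-Rel, a subunit best known from lymphocytes, was low at 0.549, 0.578 and 0.516 RPKM in OTUB2 cells, 0.593, 0.665 and 0.635 RPKM in SNX29P2 cells, and 0.708, 0.607 and 0.615 RPKM in vector cells. All OTUB2 libraries lay below all others, with a log2 fold change of -0.20 (SE 0.19, Benjamini-Hochberg adjusted p = 0.906 from limma) against vector cells and -0.17 (SE 0.19) against SNX29P2 cells; that of SNX29P2 against vector cells was -0.02 (SE 0.19). The REL value for OTUB2 against vector cells was also -0.20 without OTUB2 replicate 1. The REL value is uncertain, because 5702 of the 11255 exonic bases counted for it are shared with RP11-373L24.1 on the same strand.

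Of the genes that restrain the pathway, NFKBIA encodes the classical inhibitor that is itself induced by NF-kB. It had 8.5, 10.3 and 7.71 RPKM in OTUB2 cells, 9.11, 8.79 and 6.77 RPKM in SNX29P2 cells, and 9.59, 12.6 and 8.13 RPKM in vector cells. TNFAIP3, the ubiquitin-editing enzyme A20 and a relative of OTUB2 in the OTU family, had 4.23, 3.83 and 2.57 RPKM in OTUB2 cells, 4.33, 3.66 and 2.6 RPKM in SNX29P2 cells, and 3.83, 4.61 and 3.75 RPKM in vector cells. Library 3 was the lowest in every group for both genes, and the groups overlapped. The inhibitor NFKBIB had 11.8, 11.6 and 9.51 RPKM in OTUB2 cells, 12.5, 11.5 and 10.2 RPKM in SNX29P2 cells, and 11.2, 8.97 and 10.2 RPKM in vector cells. NFKBIE, a further inhibitor of the same family, had 3.42, 5.2 and 3.56 RPKM in OTUB2 cells, 3.79, 4.01 and 3.91 RPKM in SNX29P2 cells, and 3.77, 5.42 and 5.0 RPKM in vector cells. BCL3, a nuclear member of that family which can act as a coactivator, had 0.982, 1.06 and 0.911 RPKM in OTUB2 cells, 0.834, 0.973 and 0.712 RPKM in SNX29P2 cells, and 0.875, 1.40 and 0.925 RPKM in vector cells. None of these 5 separated any pair of groups. On the other strand, TNFAIP3 shares 95 of its 5051 counted bases with RP11-356I2.4, and NFKBIB shares 40 of its 2324 with SIRT2. The levels of these 2 genes are uncertain to that extent.

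BIRC2 was the one member that lay higher in both overexpression groups in every library. It encodes cIAP1, a ubiquitin ligase that restrains the non-canonical kinase and promotes survival downstream of TNF receptors, and lies on chromosome 11 from 102347211 to 102378670, beside its paralog BIRC3. BIRC2 had 64.7, 69.0 and 56.6 RPKM in OTUB2 cells, 63.5, 69.4 and 67.0 RPKM in SNX29P2 cells, and 46.9, 51.6 and 50.3 RPKM in vector cells. Means were 63.4 ± 6.26 RPKM in OTUB2 cells, 66.6 ± 2.93 RPKM in SNX29P2 cells and 49.6 ± 2.41 RPKM in vector cells (SD, n = 3 each). The log2 fold change was 0.35 (SE 0.08, Benjamini-Hochberg adjusted p = 0.481 from limma) for OTUB2 against vector cells and 0.43 (SE 0.08, Benjamini-Hochberg adjusted p = 0.366 from limma) for SNX29P2 against vector cells, that is 1.27-fold and 1.34-fold, and neither passed the test. It was 0.33 for OTUB2 against vector cells without OTUB2 replicate 1. BIRC3 encodes cIAP2, a close relative of cIAP1 and a known NF-kB target, and had 0.426, 0.795 and 0.460 RPKM in OTUB2 cells, 0.357, 0.656 and 0.366 RPKM in SNX29P2 cells, and 0.658, 0.725 and 0.685 RPKM in vector cells. All SNX29P2 libraries lay below all vector libraries, with a log2 fold change of -0.54 (SE 0.30, Benjamini-Hochberg adjusted p = 0.686 from limma), while OTUB2 and vector libraries overlapped at -0.30 (SE 0.30). BIRC3 reached the minimum of 0.5 RPKM in every vector library but otherwise only in OTUB2 replicate 2 and SNX29P2 replicate 2. It was thus tested only through the vector group, where it was high, so its separation supports no difference. Without SNX29P2 replicate 2 the BIRC3 value was -0.77 for SNX29P2 against vector cells, and for OTUB2 against vector cells it was -0.54 without OTUB2 replicate 2 and -0.16 without OTUB2 replicate 1. Of all runs of 50 bases in their longest transcripts, 0.273% for BIRC2 and 0.214% for BIRC3 occur in the other, so few reads could be misplaced between them.

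The other survival and adaptor genes overlapped between all groups. IER3 had 49.9, 63.3 and 48.9 RPKM in OTUB2 cells, 48.6, 61.0 and 49.1 RPKM in SNX29P2 cells, and 69.6, 72.6 and 52.2 RPKM in vector cells. SOD2, the manganese superoxide dismutase of mitochondria, averaged 3.91 ± 0.137 RPKM in OTUB2 cells, 3.89 ± 0.0981 RPKM in SNX29P2 cells and 3.94 ± 0.365 RPKM in vector cells (SD, n = 3 each). TNFAIP8, an apoptosis regulator, averaged 0.706 ± 0.0795 RPKM in OTUB2 cells, 0.715 ± 0.0958 RPKM in SNX29P2 cells and 0.740 ± 0.0894 RPKM in vector cells (SD, n = 3 each). SOD2 shares 1850 of its 18985 counted bases with ACAT2 and 437 with WTAP on the other strand, and IER3 shares 359 of 1356 with XXbac-BPG252P9.10. How strand was handled is not given in the sources used here, so these levels are uncertain.

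The chemokines differed among themselves. CXCL2, a neutrophil attractant on chromosome 4 from 74097035 to 74099293, had 2.20, 2.76 and 2.00 RPKM in OTUB2 cells, 3.20, 3.07 and 2.64 RPKM in SNX29P2 cells, and 2.84, 5.19 and 3.64 RPKM in vector cells. All OTUB2 libraries lay below all vector libraries, whereas SNX29P2 libraries overlapped with those of vector cells. The log2 fold change was -0.69 (SE 0.20, Benjamini-Hochberg adjusted p = 0.616 from limma) for OTUB2 against vector cells and -0.34 (SE 0.20, Benjamini-Hochberg adjusted p = 0.703 from limma) for SNX29P2 against vector cells. Without vector replicate 2, the highest library, these were -0.47 and -0.12, and without vector replicate 1, the lowest of that group, they were -0.89 and -0.54. Without OTUB2 replicate 1 the value for OTUB2 against vector cells was -0.66. CXCL1, which has the same promoter site and a higher RPKM than CXCL2 in every library, had 35.2, 26.8 and 44.6 RPKM in OTUB2 cells, 31.9, 26.0 and 43.8 RPKM in SNX29P2 cells, and 34.5, 21.9 and 34.6 RPKM in vector cells. Its library 2 was the lowest and its library 3 the highest in each group. CXCL3, the last gene with that site, had 6.71, 6.83 and 7.33 RPKM in OTUB2 cells, 7.36, 7.14 and 7.11 RPKM in SNX29P2 cells, and 6.66, 8.13 and 8.64 RPKM in vector cells, and its groups overlapped. Of the runs of 50 bases in the longest transcripts, 5.73% for CXCL1, 9.24% for CXCL2 and 3.02% for CXCL3 occur in another of the 3, so some reads could have been shared among them.

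CXCL8 had 66.9, 81.5 and 76.5 RPKM in OTUB2 cells, 64.7, 81.6 and 80.0 RPKM in SNX29P2 cells, and 90.9, 53.5 and 52.3 RPKM in vector cells. Its log2 fold change was 0.24 (SE 0.20) for OTUB2 against vector cells and 0.24 (SE 0.20) for SNX29P2 against vector cells, and vector replicate 1 alone lay above all OTUB2 and SNX29P2 libraries. Without vector replicate 1 these values were 0.50 and 0.50, and without vector replicate 3 they were 0.10 and 0.11. For OTUB2 against vector cells the CXCL8 value was 0.32 without OTUB2 replicate 1. CCL20, an attractant of lymphocytes and dendritic cells, had 1.05, 1.23 and 1.03 RPKM in OTUB2 cells, 1.09, 1.30 and 1.42 RPKM in SNX29P2 cells, and 1.76, 1.28 and 0.792 RPKM in vector cells. For both genes the vector libraries spanned the values of the other groups.

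Of the cytokines, LIF and IL1B were the highest. LIF, a cytokine of the interleukin-6 family, had 19.9, 25.2 and 21.6 RPKM in OTUB2 cells, 21.3, 24.7 and 21.4 RPKM in SNX29P2 cells, and 29.2, 31.4 and 23.5 RPKM in vector cells. Its log2 fold change was -0.33 (SE 0.12, Benjamini-Hochberg adjusted p = 0.704 from limma) for OTUB2 against vector cells and -0.31 (SE 0.12, Benjamini-Hochberg adjusted p = 0.568 from limma) for SNX29P2 against vector cells, and the groups overlapped at vector replicate 3. It was -0.25 for OTUB2 against vector cells without OTUB2 replicate 1. LIF shares 175 of its 3969 counted bases with RP1-102K2.8, at 10.7 to 15.7 RPKM, and 92 with RP1-102K2.6 on the other strand. The LIF level is therefore uncertain too. IL1B, which encodes interleukin-1 beta, had 8.26, 11 and 7.63 RPKM in OTUB2 cells, 6.82, 8.5 and 5.57 RPKM in SNX29P2 cells, and 15.5, 12.2 and 6.49 RPKM in vector cells. Its vector libraries were the most spread and the groups overlapped, with a log2 fold change of -0.27 (SE 0.29) for OTUB2 against vector cells and -0.63 (SE 0.29) for SNX29P2 against vector cells; without vector replicate 1 these were -0.01 and -0.37, and without vector replicate 3 they were -0.63 and -0.99. For OTUB2 against vector cells the IL1B value was -0.22 without OTUB2 replicate 1. IL6, a cytokine often measured in ovarian cancer, had 0.570, 0.707 and 0.520 RPKM in OTUB2 cells, 0.738, 0.532 and 0.389 RPKM in SNX29P2 cells, and 0.464, 0.816 and 0.631 RPKM in vector cells. CSF1, the macrophage growth factor, had 0.479, 0.692 and 0.365 RPKM in OTUB2 cells, 0.580, 0.638 and 0.289 RPKM in SNX29P2 cells, and 0.536, 0.719 and 0.402 RPKM in vector cells. Neither gene separated any groups, and CSF1 had the widest spread within groups of all tested members, with a residual SD of 0.42 on the log2 scale beside 0.15 for the median gene. IL6 shares 428 of its 2069 counted bases with AC073072.5 on the other strand, so its level is uncertain.

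PTGS2 showed the largest difference of any tested member for OTUB2 and for SNX29P2 against vector cells. It encodes cyclooxygenase-2, the inducible enzyme of prostaglandin synthesis, and lies on chromosome 1 from 186671791 to 186680427 on the minus strand. PTGS2 had 1.05, 1.28 and 0.993 RPKM in OTUB2 cells, 1.28, 1.67 and 1.38 RPKM in SNX29P2 cells, and 1.99, 3.27 and 1.91 RPKM in vector cells. Every OTUB2 and every SNX29P2 library lay below every vector library, and vector replicate 2 was the highest of all. Means were 1.11 ± 0.153 RPKM in OTUB2 cells, 1.44 ± 0.206 RPKM in SNX29P2 cells and 2.39 ± 0.767 RPKM in vector cells (SD, n = 3 each). The log2 fold change was -1.01 (SE 0.21, 95% interval -1.48 to -0.53, Benjamini-Hochberg adjusted p = 0.475 from limma) for OTUB2 against vector cells. For SNX29P2 against vector cells it was -0.66 (SE 0.21, 95% interval -1.13 to -0.18, Benjamini-Hochberg adjusted p = 0.519 from limma). Without vector replicate 2 these were -0.77 and -0.41, and without OTUB2 replicate 1 the value for OTUB2 against vector cells was -0.98. The lowest adjusted p of any member and any setting was PTGS2 for OTUB2 against vector cells, at 0.0961 (limma, Benjamini-Hochberg), so the gene missed the threshold under every alternative tried.

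**Figure D3:**
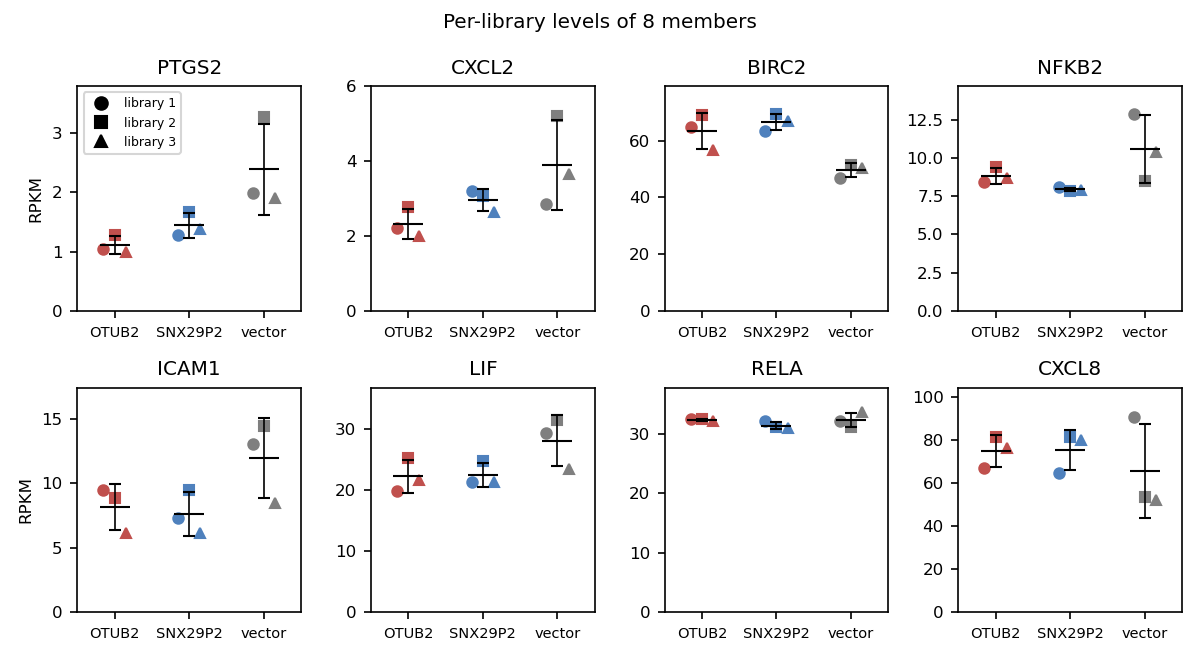
RPKM of 8 members in each library of OTUB2, SNX29P2 and vector cells (points, with shape by library number), with the mean and SD of each group (black, n = 3) on axes that start at 0. PTGS2 lies at 0.993 to 1.67 RPKM in the OTUB2 and SNX29P2 libraries and at 1.91 to 3.27 RPKM in the vector libraries, BIRC2 at 56.6 to 69.4 RPKM against 46.9 to 51.6 RPKM, and RELA stays between 31 and 33.6 RPKM.

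The plot of 8 members by library sets these genes beside RELA and CXCL8, which overlapped. ICAM1, the adhesion molecule that leukocytes bind, had 9.46, 8.88 and 6.13 RPKM in OTUB2 cells, 7.33, 9.47 and 6.13 RPKM in SNX29P2 cells, and 13.1, 14.4 and 8.49 RPKM in vector cells. Vector replicate 3 lay within the range of the other groups, so neither group separated from vector cells. The log2 fold change was -0.54 (SE 0.24, Benjamini-Hochberg adjusted p = 0.730 from limma) for OTUB2 against vector cells and -0.63 (SE 0.24, Benjamini-Hochberg adjusted p = 0.551 from limma) for SNX29P2 against vector cells. Without OTUB2 replicate 1 the value for OTUB2 against vector cells was -0.66, and without OTUB2 replicate 3 it was -0.35. ICAM1 shares 815 of its 3706 counted bases with CTD-2369P2.8 and 61 with CTD-2369P2.5 on the other strand; CTD-2369P2.5 had 46.0 to 58.2 RPKM, above ICAM1 in every library, so the ICAM1 level is uncertain. IRF1, an interferon regulatory factor, had 1.77, 1.84 and 1.45 RPKM in OTUB2 cells, 1.39, 1.61 and 1.15 RPKM in SNX29P2 cells, and 1.59, 2.34 and 1.86 RPKM in vector cells. Its log2 fold change was -0.17 (SE 0.18) for OTUB2 against vector cells and -0.45 (SE 0.18, Benjamini-Hochberg adjusted p = 0.568 from limma) for SNX29P2 against vector cells, and SNX29P2 replicate 2 lay above vector replicate 1. Without vector replicate 2 the IRF1 values were -0.03 and -0.31, and without vector replicate 1 they were -0.30 and -0.57. For OTUB2 against vector cells IRF1 was -0.21 without OTUB2 replicate 1 and -0.08 without OTUB2 replicate 3. IRF1 shares 321 of its 7799 counted bases with RP11-89G4.1 on the other strand, at 0 to 0.0809 RPKM, so its level is uncertain to that extent. TNFAIP2, a TNF-induced gene related to exocyst subunits, had 12.4, 16.8 and 12.2 RPKM in OTUB2 cells, 10.7, 17.3 and 12.3 RPKM in SNX29P2 cells, and 11.6, 19.1 and 12.5 RPKM in vector cells, with library 2 the highest in each group.

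In the direct comparison of OTUB2 with SNX29P2 cells no member passed the test. Of the 28 tested members, 11 (39.3%) had a log2 fold change below 0 for OTUB2 against SNX29P2 cells, beside 8490 of all 16533 genes (51.4%). The median was 0.03, beside -0.00 over all genes. Without OTUB2 replicate 2, 20 members lay below 0 and the median was -0.07, so its sign rested on that library; without SNX29P2 replicate 3 it was -0.02. NFKB2 was above in every OTUB2 library, with 8.42, 9.41 and 8.67 RPKM in OTUB2 cells against 8.07, 7.83 and 7.92 RPKM in SNX29P2 cells, a log2 fold change of 0.15 (SE 0.13; 95% interval -0.14 to 0.44). RELA was also above in every OTUB2 library, by a log2 fold change of 0.04 (SE 0.05; 95% interval -0.08 to 0.16). REL was below in every OTUB2 library, by -0.17 (SE 0.19; 95% interval -0.61 to 0.26). Without OTUB2 replicate 1 these values were 0.18 for NFKB2, 0.04 for RELA and -0.18 for REL. Each of these 3 had a limma Benjamini-Hochberg adjusted p that missed the threshold, which does not show that the overexpressed genes act alike. Libraries of OTUB2 and SNX29P2 cells with the same number deviated together over all genes, so each OTUB2 library was also set against the SNX29P2 library of its number. In all 3 pairs, 8 members (28.6%) were higher in the OTUB2 library (NFKB2, RELA, RELB, BIRC3, BCL3, CXCL1, IL1B and IRF1), beside 18.2% of all genes. In all 3 pairs, 4 members (14.3%) were lower (REL, CXCL2, CCL20 and PTGS2), beside 20.1% of all genes. With the number as a block, 1 member, PTGS2, had an unadjusted p under 0.05, beside 4.71% of all genes, at a log2 fold change of -0.35 (SE 0.13, Benjamini-Hochberg adjusted p = 0.919 from limma).

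The spread of these members within groups partly followed the library numbers. The library numbered 2 was the highest of its group in all 3 groups for 12 of the 28 tested members: NFKB1, RELB, NFKBIE, TNFAIP2, BIRC2, BIRC3, BCL3, LIF, CSF1, PTGS2, IRF1 and IER3. That is 42.9%, beside 14.2% of all genes tested. It was the lowest in all 3 groups for 1 member, CXCL1, beside 10.4% of all genes. Vector replicate 2 was the highest of all 9 libraries for 17 of the 31 members (54.8%), beside 17.0% of all genes tested, and vector replicate 1 for 7 (22.6%), beside 18.8%. OTUB2 replicate 1, which held the leukocyte transcripts, was the highest for 0, beside 10.9% of all genes. Outside the members, some NF-kB genes of the lists below had reads mainly in that library. TNFRSF1B had 80 reads and TLR2 had 40 reads there, and 0 in every other library. CCL5 had 44 reads there and 0 to 2 in each other library. All 3 genes lay below the minimum of the test. The labels do not say what the library numbers mark. Of the 4 listed mesenchymal markers, VIM and FN1 lay higher in every vector library than in all others, while CDH2 and SPARC overlapped between the groups. VIM had 975, 1051 and 1062 RPKM in OTUB2 cells, 1002, 1017 and 986 RPKM in SNX29P2 cells, and 1145, 1142 and 1105 RPKM in vector cells. The 4 together summed to 1123 to 1230 RPKM in OTUB2 cells, 1148 to 1195 RPKM in SNX29P2 cells and 1282 to 1359 RPKM in vector cells, and VIM made up the largest share of each sum. Their part in the results was not tested.

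**Figure D4:**
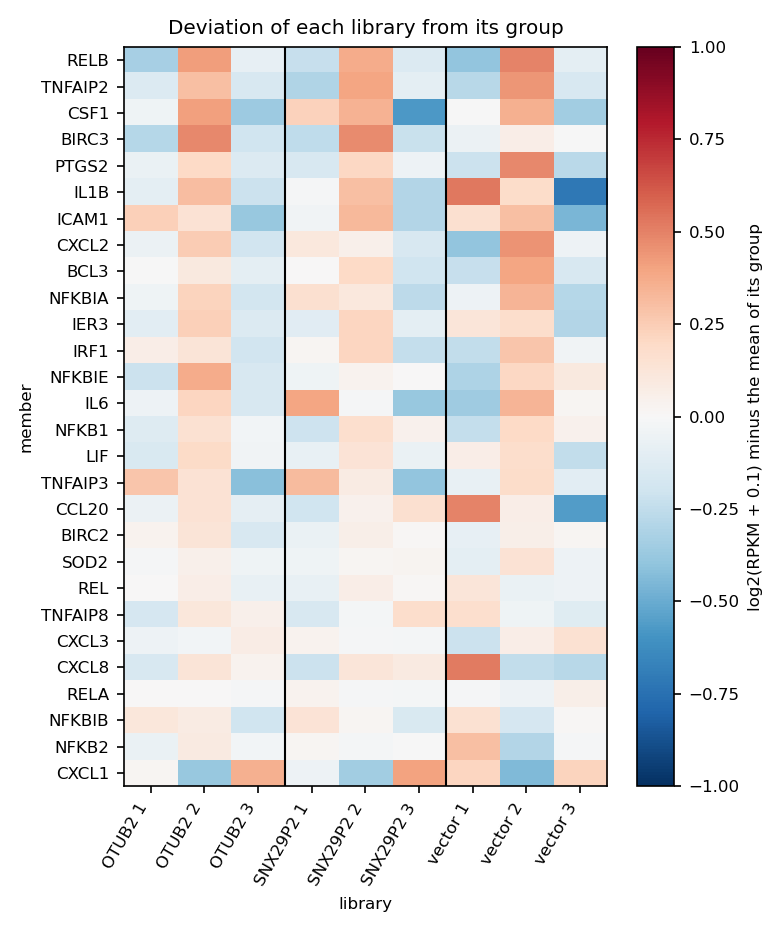
Deviation of each library from the mean of its group, in log2(RPKM + 0.1), for the 28 tested members (rows, ordered by the mean deviation of the libraries numbered 2) and the 9 libraries of OTUB2, SNX29P2 and vector cells (columns). Red fills the columns numbered 2 for most rows, from RELB and TNFAIP2 at the top, and CXCL1 at the bottom is blue there; group means are removed, so no difference between groups is shown.

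The map of deviations shows this pattern row by row. Genes that carry the signal to NF-kB gave no call either. Of 43 such genes, from receptors to the kinase and the ubiquitin enzymes, 42 were matched, 37 were tested and 0 had an adjusted p under 0.05 (limma, Benjamini-Hochberg) in any comparison. At an unadjusted p under 0.05 there was 1 for OTUB2 against vector cells (TNIP1), or 2.70% of those tested beside 6.73% of all genes. There were 4 for SNX29P2 against vector cells (IRAK4, SHARPIN, TNIP1 and TNIP2), or 10.8% beside 8.21% of all genes, and 0 for OTUB2 against SNX29P2 cells beside 2.43%. Their median log2 fold change was -0.04 for OTUB2 against vector cells, -0.00 for SNX29P2 against vector cells and -0.02 for OTUB2 against SNX29P2 cells. TNIP1, which encodes a ubiquitin-binding partner of A20, had 17.6, 17.3 and 17.5 RPKM in OTUB2 cells, 17.3, 17.6 and 16.3 RPKM in SNX29P2 cells, and 22.4, 19.1 and 18.9 RPKM in vector cells. All vector libraries lay above the others, with a log2 fold change of -0.20 (SE 0.08, Benjamini-Hochberg adjusted p = 0.704 from limma) for OTUB2 against vector cells and -0.24 (SE 0.08, Benjamini-Hochberg adjusted p = 0.518 from limma) for SNX29P2 against vector cells. Without vector replicate 1 these were -0.13 and -0.16, and without OTUB2 replicate 1 the value for OTUB2 against vector cells was -0.21. The kinase subunits were even: IKBKB averaged 5.25 ± 0.0704 RPKM in OTUB2 cells, 5.29 ± 0.321 RPKM in SNX29P2 cells and 5.21 ± 0.535 RPKM in vector cells (SD, n = 3 each). SHARPIN, a subunit of the linear ubiquitin ligase, had 15.4, 15.7 and 15.8 RPKM in OTUB2 cells, 16.0, 14 and 15.1 RPKM in SNX29P2 cells, and 18.2, 16.5 and 17.1 RPKM in vector cells, where the vector libraries were again the highest. RNF31, the catalytic subunit of that ligase, had 7.08, 7.64 and 7.33 RPKM in OTUB2 cells, 7.37, 7.84 and 7.43 RPKM in SNX29P2 cells, and 8.05, 8.61 and 7.76 RPKM in vector cells. Only its OTUB2 libraries all lay below those of vector cells. IRAK4, a kinase downstream of interleukin-1 and Toll-like receptors, had 3.46, 3.68 and 3.57 RPKM in OTUB2 cells, 4.05, 4.04 and 4.56 RPKM in SNX29P2 cells, and 3.80, 2.99 and 3.67 RPKM in vector cells. All SNX29P2 libraries lay above all others for IRAK4. For OTUB2 against vector cells, 3 of the 37 lay below without overlap (8.11%, beside 4.91% of all genes) and 1 above (2.70%, beside 5.9%). For SNX29P2 against vector cells, 3 lay below (8.11%, beside 5.53%) and 3 above (8.11%, beside 6.13%). For OTUB2 against SNX29P2 cells, 3 lay below (8.11%, beside 4.05%) and 0 above, beside 4.3%.

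A list of 35 further NF-kB targets was treated the same way: 31 were matched, 15 were tested and 0 had an adjusted p under 0.05 (limma, Benjamini-Hochberg) in any comparison. At an unadjusted p under 0.05 there were 2 for OTUB2 against vector cells (VCAM1 and STX11), or 13.3% of those tested beside 6.73% of all genes. There were 3 for SNX29P2 against vector cells (VCAM1, PLAU and STX11), or 20% beside 8.21% of all genes, and 0 for OTUB2 against SNX29P2 cells beside 2.43%. The median log2 fold change was -0.13 for OTUB2 against vector cells, -0.08 for SNX29P2 against vector cells and 0.00 for OTUB2 against SNX29P2 cells. VCAM1, an adhesion molecule of the same kind as ICAM1, had 0.986, 1.59 and 1.31 RPKM in OTUB2 cells, 0.938, 1.61 and 1.04 RPKM in SNX29P2 cells, and 1.81, 3.16 and 1.69 RPKM in vector cells. All vector libraries lay above the others, and the log2 fold change was -0.70 (SE 0.28, Benjamini-Hochberg adjusted p = 0.707 from limma) for OTUB2 against vector cells and -0.82 (SE 0.28, Benjamini-Hochberg adjusted p = 0.541 from limma) for SNX29P2 against vector cells. Without vector replicate 2 these were -0.43 and -0.55, and without OTUB2 replicate 1 the value for OTUB2 against vector cells was -0.53. STX11, a syntaxin of vesicle fusion, went the other way, with 0.759, 0.406 and 0.533 RPKM in OTUB2 cells, 0.827, 0.416 and 0.473 RPKM in SNX29P2 cells, and 0.328, 0.202 and 0.327 RPKM in vector cells. All its vector libraries lay below the others, with a log2 fold change of 0.77 (SE 0.33, Benjamini-Hochberg adjusted p = 0.727 from limma) for OTUB2 against vector cells and 0.77 (SE 0.33, Benjamini-Hochberg adjusted p = 0.602 from limma) for SNX29P2 against vector cells. STX11 reached the minimum of 0.5 RPKM only in OTUB2 replicates 1 and 3 and SNX29P2 replicate 1, and in no vector library. It was thus tested only because it was high in the overexpression groups. Its separation and its place in the counts above therefore support no difference. In the fit without OTUB2 replicate 1, STX11 did not pass the minimum level and gave no value. PLAU, the urokinase plasminogen activator, had 154, 198 and 170 RPKM in OTUB2 cells, 143, 187 and 162 RPKM in SNX29P2 cells, and 205, 210 and 189 RPKM in vector cells, with a log2 fold change of -0.22 (SE 0.11) for OTUB2 against vector cells and -0.30 (SE 0.11, Benjamini-Hochberg adjusted p = 0.551 from limma) for SNX29P2 against vector cells. The PLAU value for OTUB2 against vector cells was -0.13 without OTUB2 replicate 1. For OTUB2 against vector cells, 2 of the 15 lay below without overlap (13.3%, beside 4.91% of all genes) and 1 above (6.67%, beside 5.9%). For SNX29P2 against vector cells, 4 lay below (26.7%, beside 5.53%) and 1 above (6.67%, beside 6.13%). The 1 gene above was STX11 in both comparisons, so these 2 shares support no difference either.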

How the data were processed

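RNA of 9 ES-2 libraries was compared in 3 groups of 3, placed by the genotype in the labels. The authors deposited 1 table of RPKM values for 32997 genes with exon positions and lengths, per the file headers, and the submitters' processing notes name GRCh38. Aligner, counter, strand handling and gene annotation: not given in the sources used here. Values under 1000 reads were whole multiples of 1 read within 0.05 reads in 100% of cases, so whole reads were recovered. Libraries held 38504854 to 48551215 such reads, and the typical standard error (median over genes) of log2 fold changes was 0.13. Reads need not be independent molecules, so intervals and floors from reads cover counting error only. 25 gene names had been turned into dates and were left unnamed.

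The 16533 genes that reached 0.5 RPKM in 3 or more libraries were fitted with limma 3.58.1 (R 4.3.3, trended variance, 2-sided) on log2(RPKM + 0.1), with group as the only term, and p-values were adjusted by Benjamini-Hochberg over all of them, with calls under 0.05. An exact permutation test of 3 against 3 cannot go below 0.1 and was not used. Per-library values are given for the subunits and inhibitors, for members without overlap or with an unadjusted p under 0.05, and also for some others. From the upstream and further target lists, up to 3 genes with the smallest p per comparison could be named. IKBKB, MMP1, PTX3, CCL5, TNF and the receptors were named outside that rule, after their values were seen. The members and lists were chosen with earlier results of these data known. Residuals of same-numbered libraries correlated at 0.27, 0.26 and 0.15 between OTUB2 and SNX29P2 cells, all above 0.1, so the numbers were taken to pair them. Between OTUB2 and vector cells they correlated at 0.05, 0.19 and 0.14, and between SNX29P2 and vector cells at -0.02, 0.15 and 0.10, which does not establish pairs. Alternatives were other pseudocounts (1 and 0.01), filters, scaling, fits of the compared groups alone, a replicate block, voom on recovered reads and each library left out; the fit without the libraries numbered 2 and the count of signs over same-numbered pairs were chosen after seeing the data. The fitting program was tested on simulated data. Sequences are from RefSeq. Python 3.11.15, pandas 2.3.3, numpy 2.4.6, scipy 1.17.1 and matplotlib 3.10.9 were used.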

Additional observations from a re-analysis of the deposited data

How the results depend on the processing

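No tested member was called in any of the 3 comparisons in any of the 19 settings. The lowest adjusted p of a member (limma, Benjamini-Hochberg) was 0.0961 for OTUB2 against vector cells, 0.147 for SNX29P2 against vector cells and 0.900 for OTUB2 against SNX29P2 cells. Over all genes, OTUB2 against vector cells gave 3 calls, 7 with no filter, 1 with only the 2 groups fitted and 1 without the libraries numbered 2. With 1 library left out it gave 1 (each OTUB2 library or vector replicate 1) to 7 (vector replicate 3). SNX29P2 against vector cells gave 6 calls, 1 with the stricter filter, 10 with voom, and 0 by limma without the libraries numbered 2, where 684 genes had an unadjusted p under 0.05. With 1 library left out it gave 1 (each SNX29P2 library) to 7 (vector replicate 3). OTUB2 against SNX29P2 cells gave 4 calls, 1 with the stricter filter, 1 without the libraries numbered 2, and with 1 library left out 1 (each SNX29P2 library) to 5 (OTUB2 replicate 1). The replicate block gave 4 calls for OTUB2 against vector cells, 9 for SNX29P2 against vector cells and 4 for OTUB2 against SNX29P2 cells, and no member among them. Under it 8 members (28.6%) had an unadjusted p under 0.05 for OTUB2 against vector cells, beside 11.7% of all genes, and 11 (39.3%) for SNX29P2 against vector cells, beside 13.7%. Members without overlap between groups numbered 10 (38.5%) for OTUB2 against vector cells, beside 31.2% of all genes, 9 (34.6%) for SNX29P2 against vector cells, beside 29.5%, and 10 for OTUB2 against SNX29P2 cells, beside 28.2%, without the libraries numbered 2. With 1 library left out they numbered 4 to 10 (14.3% to 35.7%) for OTUB2 against vector cells, beside 10.8% to 26.4% of all genes. For SNX29P2 against vector cells they numbered 4 to 11 (14.3% to 39.3%), beside 11.6% to 26.2%. For OTUB2 against SNX29P2 cells they numbered 3 to 7 (10.7% to 25%), beside 8.36% to 27.5%. In some of these fits the member share lay below that of all genes. Fewer libraries separate more easily by construction. Members below 0 for OTUB2 against SNX29P2 cells numbered 9 to 20 with 1 library left out. The median log2 fold change over all genes in these fits was -0.0114 to 0.00508. RELA for OTUB2 against vector cells was -0.0205 on the log2 scale without the libraries numbered 2, and -0.0195 to 0.0340 with 1 library left out. REL for SNX29P2 against vector cells was -0.0572 to 0.0391 with 1 library left out. The cause of these shifts was not tested. Depth limits TRAF1, IL1A and CSF2, which had at most 78 reads in a library.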

Other observations

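The receptors that feed the pathway differed widely in level in ES-2 cells. TNFRSF12A, the receptor for the cytokine TWEAK, averaged 156 ± 7.98 RPKM in OTUB2 cells, 143 ± 14 RPKM in SNX29P2 cells and 153 ± 13.3 RPKM in vector cells (SD, n = 3 each). TNFRSF1A, the main TNF receptor, averaged 21.0 ± 1.40 RPKM in OTUB2 cells, 20.2 ± 1.46 RPKM in SNX29P2 cells and 21.2 ± 2.20 RPKM in vector cells (SD, n = 3 each). LTBR, the lymphotoxin beta receptor, averaged 11.3 ± 1.00 RPKM in OTUB2 cells, 11 ± 0.557 RPKM in SNX29P2 cells and 12.6 ± 1.75 RPKM in vector cells (SD, n = 3 each). The interleukin-1 receptor IL1R1 stayed at 0.0566 to 0.191 RPKM over all libraries, from 16 to 62 reads, and TLR3 at 0.0288 to 0.0701 RPKM, from 8 to 22 reads. The receptors TNFRSF1B and TLR2 had 0.493 and 0.224 RPKM in OTUB2 replicate 1, which held the leukocyte transcripts, and 0 RPKM in every other library. TNF, the cytokine that TNFRSF1A binds, stayed at 0 to 0.0563 RPKM. These genes were chosen for description after their values were seen.

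Some targets of the further list lay above every member in every library. MMP1, a collagenase, had 4390 to 5167 RPKM over the 9 libraries, and the chemokine CXCL5 had 109 to 167 RPKM. PTX3, a secreted pattern recognition protein, averaged 187 ± 11.6 RPKM in OTUB2 cells, 188 ± 16.8 RPKM in SNX29P2 cells and 206 ± 26.8 RPKM in vector cells (SD, n = 3 each).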
